A study of Mus musculus with 12 samples.

Results

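The insulin-like growth factor (IGF) system was followed through 10 genes taken by symbol from the 33246 genes in the table of read counts: the ligands Igf1 and Igf2, the receptors Igf1r and Igf2r, and the binding proteins Igfbp2, Igfbp3, Igfbp4, Igfbp5, Igfbp6 and Igfbp7. All 10 had enough counts to be among the 14542 genes tested. The cells were primary fibroblasts from the ears of C57BL/6 mice aged 1 month, expanded to passage 2 in serum-containing medium, with no genetic change or drug stated for any group. In each sample 500000 cells were kept for 48 h on an alginate hydrogel that was either elastic or viscoelastic, with a stiffness of 2 kPa or 20 kPa, and polyA RNA was sequenced. The viscoelastic gels were of the study's slow-relaxing kind, and its fast-relaxing gels are not among these samples. There were 3 samples in each of the 4 groups: 2-kPa elastic, 20-kPa elastic, 2-kPa viscoelastic and 20-kPa viscoelastic. The elastic gels were crosslinked covalently and the viscoelastic gels ionically, so stress relaxation and the kind of crosslink cannot be told apart. The methods also name Tau-EGFP reporter mice and mice of both sexes. The study calls the 3 samples of a group biological replicates, but the labels do not tie a sample to an animal or a culture. The p-values thus measure the spread between these samples, which may be partly technical.

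The IGF ligands are secreted peptides that signal through the receptor tyrosine kinase encoded by Igf1r, mainly along the PI3K and AKT pathway. The receptor encoded by Igf2r has no kinase and takes IGF2 up for degradation. IGF-binding proteins hold the ligands in the extracellular fluid and on the matrix, where they keep IGFs from the receptor or store them, and proteases release the ligand again. Fibroblasts of connective tissue are a known source of ligands and of binding proteins alike.

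Of these genes, Igfbp5, Igfbp4 and Igfbp2 had the most counts among those that were higher on viscoelastic gels over both stiffnesses, and the 250 bases before their RefSeq start sites (assembly GRCm38.p6, the same coordinates as mm10) are shown for that reason. Igfbp2 lies on the plus strand of chromosome 1 and Igfbp5 on the minus strand 5457 bases further on, so that their 3′ ends face each other. Capitals mark matches, on either strand, to any of 4 motifs. The TATA box was searched as TATAAA. The GC box, which SP factors bind, was searched as GGGCGG. The core that TEAD factors bind was searched as GGAATG. The site of FOXO factors was searched as TGTTTAC. None of these words contains another. The windows are chr1:72824230-72824479 (plus strand) for Igfbp2, chr11:99040994-99041243 (plus strand) for Igfbp4 and chr1:72874866-72875115 (minus strand) for Igfbp5.
Igfbp2: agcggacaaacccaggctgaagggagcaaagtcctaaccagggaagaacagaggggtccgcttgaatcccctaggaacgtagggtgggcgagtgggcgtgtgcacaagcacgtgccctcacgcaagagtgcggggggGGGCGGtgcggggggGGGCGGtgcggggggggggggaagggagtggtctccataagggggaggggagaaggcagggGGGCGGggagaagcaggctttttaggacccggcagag
Igfbp4: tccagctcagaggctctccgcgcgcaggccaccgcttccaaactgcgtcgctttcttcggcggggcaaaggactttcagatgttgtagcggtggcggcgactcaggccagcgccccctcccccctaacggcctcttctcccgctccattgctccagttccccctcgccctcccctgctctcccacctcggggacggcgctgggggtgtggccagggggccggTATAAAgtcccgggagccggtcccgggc
Igfbp5: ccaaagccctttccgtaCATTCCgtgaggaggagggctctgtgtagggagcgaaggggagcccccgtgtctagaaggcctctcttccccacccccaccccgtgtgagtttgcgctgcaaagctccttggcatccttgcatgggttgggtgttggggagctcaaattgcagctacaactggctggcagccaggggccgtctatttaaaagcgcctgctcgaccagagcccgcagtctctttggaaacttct
RefSeq has 2 start sites for Igfbp2, of which the one nearer to the GENCODE start is shown, and the window of the other held no match to the 4 motifs. The Igfbp2 window shown held 3 GC boxes, the Igfbp4 window 1 TATA box and the Igfbp5 window 1 TEAD core. Such letters are common: of 32851 RefSeq windows of this length, 32.7% held a GC box, 12.4% the TATA box, 12.6% the TEAD core and 3.17% the FOXO site. The 3 windows thus shared none of the 4 motifs, and a match is given as a description of the sequence only.

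The libraries held 36626221 to 43612804 counts on genes. Mitochondrial genes took 1.77% to 3.34% of them. Fibroblast markers summed to 23723 to 29260 CPM (counts scaled to a common library size), with Col1a1, Pdgfra and Dcn present in every sample. Markers of macrophages (5.34 to 9.28 CPM summed), keratinocytes (2.90 to 5.07 CPM) and endothelial cells (2.27 to 3.69 CPM) were low, those of melanocytes (0.690 to 1.26 CPM) and adipocytes (up to 0.264 CPM) were close to 0, and those of skeletal muscle summed to 4.41 to 10.6 CPM. The smooth muscle and pericyte list summed to 286 to 556 CPM, mostly from Cspg4. Chondrocyte markers stood out, with sums of 4352 to 6369 CPM to which Col2a1, Acan, Col11a2, Sox9 and Col9a1 all contributed, while Matn1 lay between 0 and 0.187 CPM. The ear also holds cartilage, and in bulk samples fewer cells of a type and less RNA per cell cannot be told apart. All levels below are CPM after TMM normalization, and differences are log2 fold changes ± SE with Benjamini-Hochberg (BH) adjusted p-values over the 14542 tested genes from edgeR's quasi-likelihood test on all 12 samples, with 0.05 as the threshold.

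Per kilobase of exon, which lets genes be compared with each other, Igfbp5 was the most abundant of the 10 genes, with a mean of 1671 CPM per kb over the 12 samples. Igfbp4 followed with 437 CPM per kb, Igfbp7 with 267 CPM per kb and Igfbp2 with 197 CPM per kb. The receptors were lower, with 54.0 CPM per kb for Igf2r and 19.3 CPM per kb for Igf1r. Igfbp3 had 50.4 CPM per kb, Igf1 14.1 CPM per kb and Igfbp6 9.64 CPM per kb. Igf2 came last with 0.489 CPM per kb. These lengths count every annotated exon base. By the longest transcript alone Igfbp2 (278 CPM per kb) lay above Igfbp7 (269 CPM per kb), and Igfbp3 (65.2 CPM per kb) above Igf2r (56.6 CPM per kb). By CPM, Igfbp5 ranked 3 among all tested genes, Igfbp4 ranked 39, and Igf2 ranked 11289. Igfbp5 alone took 0.576% to 1.33% of all counts of a sample. Among the 6 binding proteins it made up 60.4% to 65.4% of the summed level per kb in the group means.

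**Figure D1:**
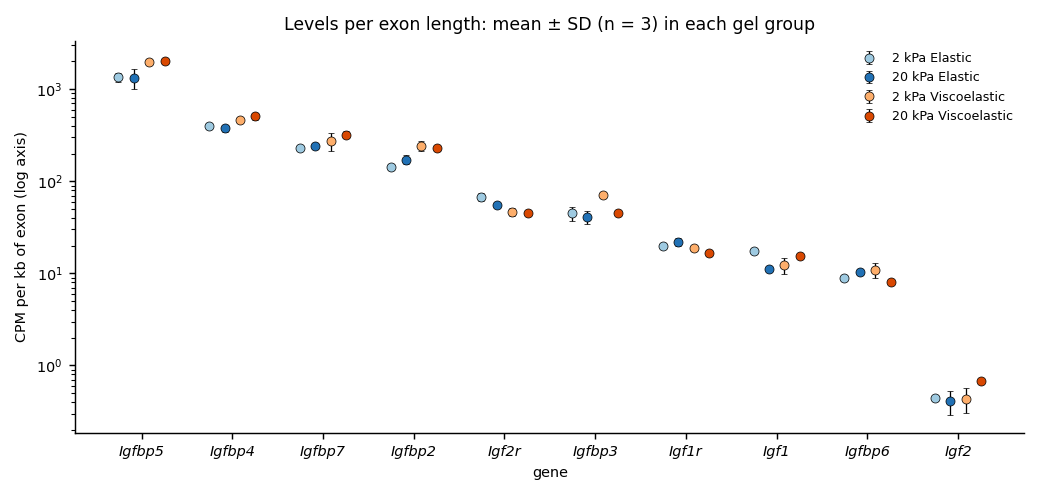
Level of each IGF system gene in CPM per kb of exon (vertical log axis) in the 4 gel groups, with points for the mean and bars for the SD (n = 3). The binding proteins Igfbp5, Igfbp4, Igfbp7 and Igfbp2 lie above both receptors and both ligands in every group, and Igf2 lies lowest at 0.489 CPM per kb on average.

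The viscoelastic gels were compared with elastic gels at each stiffness to ask whether stress relaxation changed these genes on a soft and on a stiff gel. At 2 kPa, Igfbp2, Igfbp3 and Igfbp5 were higher and Igf1 and Igf2r were lower on viscoelastic gels, and the other 5 genes did not pass the test, of which the DESeq2 Wald test called 1, Igfbp4, higher. Of all tested genes 8.77% were called higher and 11.1% lower in this comparison. At 20 kPa, Igf1, Igf2, Igfbp2, Igfbp4, Igfbp5 and Igfbp7 were higher, Igf1r, Igf2r and Igfbp6 were lower, and Igfbp3 did not pass the test. The shares of all tested genes at 20 kPa were 17.4% higher and 16.1% lower. The median log2 fold change of the 10 genes was 0.23 at 2 kPa and 0.42 at 20 kPa, against −7.5e-05 and 0.016 for all tested genes. Averaged over both stiffnesses, 5 genes (Igfbp2, Igfbp3, Igfbp4, Igfbp5 and Igfbp7) were higher and 2 (Igf1r and Igf2r) were lower, where 19.6% of all tested genes were called higher and 20.4% lower. The smooth muscle and pericyte markers also moved with the gel type, with sums of 384 to 556 CPM on elastic and 286 to 342 CPM on viscoelastic gels. Of these 4 markers 2 were lower and none was higher in the mean effect, while Myh11 and Rgs5 stayed at or below 3.50 CPM. The fibroblast sum was 27083 to 29260 CPM on 20-kPa viscoelastic and 23723 to 25705 CPM on 20-kPa elastic gels, and overlapped between gel types at 2 kPa. The part of either in the results of the IGF genes was not tested.

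The effect of stiffness was smaller in number of genes. On elastic gels none of the 10 genes was called higher at 20 kPa than at 2 kPa by edgeR, and Igf1 and Igf2r were lower, against 6.81% of all tested genes called higher and 7.14% called lower. At an unadjusted p under 0.05 there was 1 higher, Igfbp2, which the DESeq2 Wald test also called. On viscoelastic gels none was called higher and Igfbp3 was lower, where 1.58% of all tested genes were called higher and 0.695% lower. At an unadjusted p under 0.05 Igf1 and Igf2 were higher there, of which DESeq2 called 1, Igf1. DESeq2 also called Igfbp6 lower there. The interaction, the log2 change from 2 to 20 kPa on viscoelastic gels less the same change on elastic gels, was positive for Igf1 and negative for Igfbp6 and did not pass the test for the other 8 genes. It was called positive for 4.45% and negative for 3.12% of all tested genes. The comparisons share groups, so their calls are not independent of each other.

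**Figure D2:**
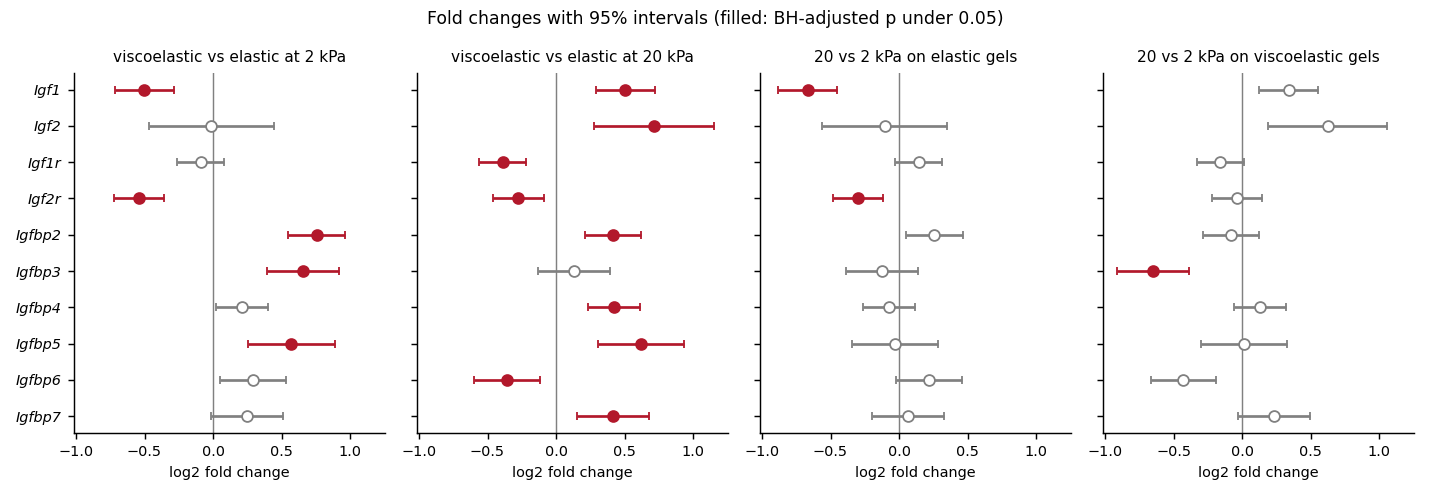
Log2 fold change of the 10 genes (horizontal axis, bars are 95% intervals) in the 4 comparisons of 2 groups. Filled points have an adjusted p under 0.05: 5 genes at 2 kPa and 9 genes at 20 kPa for viscoelastic against elastic gels, 2 genes for stiffness on elastic gels and 1 gene for stiffness on viscoelastic gels. Of all tested genes 8.77% were called higher and 11.1% lower at 2 kPa, and 17.4% and 16.1% at 20 kPa. For stiffness these shares were 6.81% and 7.14% on elastic gels and 1.58% and 0.695% on viscoelastic gels.

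Among the ligands, Igf1 (chr10:87858265-87937042, plus strand), the growth factor that mediates much of the action of growth hormone, responded in opposite directions on soft and stiff gels. Its level was 174.3, 166.8 and 179.0 CPM on 2-kPa elastic gels, 109.8, 106.8 and 111.1 CPM on 20-kPa elastic gels, 101.8, 149.5 and 115.6 CPM on 2-kPa viscoelastic gels, and 148.9, 163.8 and 151.9 CPM on 20-kPa viscoelastic gels. The 2-kPa elastic samples were the highest and overlapped no other group, and the spread was widest on 2-kPa viscoelastic gels, where replicate 2 was well above the other 2 samples. At 2 kPa Igf1 was lower on viscoelastic gels (log2 fold change −0.50 ± 0.10, 0.705 times, adjusted p = 0.00328), and at 20 kPa it was higher (0.50 ± 0.10, 1.42-fold, adjusted p = 0.0018). The 2 effects cancelled in the mean over both stiffnesses (95% interval −0.15 to 0.15, adjusted p = 1.0). On elastic gels it was lower at 20 kPa (−0.67 ± 0.10, adjusted p = 0.000657). On viscoelastic gels the difference was 0.34 ± 0.10 (adjusted p = 0.0845), and without replicate 2 of the 2-kPa viscoelastic group it was 0.51 with an adjusted p of 0.00488. The interaction was 1.01 ± 0.14 (adjusted p = 0.000637) and passed the test in all 19 alternative fits.

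Chondrocyte markers, S100b and some fibroblast markers also differed between the groups. The chondrocyte markers summed to 5121 to 6369 CPM on 2-kPa elastic gels, 4352 to 4501 CPM on 20-kPa elastic gels, 4594 to 5860 CPM on 2-kPa viscoelastic gels and 4510 to 5987 CPM on 20-kPa viscoelastic gels. Of the 5 chondrocyte markers that were tested, 3 were lower and none was higher at 20 kPa on elastic gels, against 7.14% and 6.81% of all tested genes. The interaction was called positive for 2 and negative for none, against 4.45% and 3.12% of all tested genes. On viscoelastic gels at 2 kPa 2 were lower and none was higher, against 11.1% and 8.77%. At 20 kPa 1 was higher and none was lower, against 17.4% and 16.1%. S100b, which chondrocytes and Schwann cells both express, had 70.9 to 73.3 CPM on 2-kPa elastic gels, 40.0 to 44.1 CPM on 20-kPa elastic gels, 49.3 to 58.3 CPM on 2-kPa viscoelastic gels and 67.9 to 89.2 CPM on 20-kPa viscoelastic gels, and made up most of the Schwann cell sum of 45.7 to 95.7 CPM, while Sox10 stayed at or below 0.524 CPM. S100b was the only 1 of the 5 Schwann cell markers with a called interaction. Of the 9 fibroblast markers 1 had a positive and 1 a negative interaction. Lum, a fibroblast marker, changed in the directions of Igf1, with means of 936, 594, 719 and 968 CPM in the same group order. Thy1, another, changed in the reverse directions, with means of 202, 280, 215 and 194 CPM. The part of these cell type markers in the Igf1 result was not tested.

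Igf2 (chr7:142650766-142666816, minus strand), the fetal growth factor expressed from the paternal allele, was barely present, with 64 to 167 counts per sample. Its level was 2.48, 2.38 and 2.72 CPM on 2-kPa elastic gels, 2.82, 2.60 and 1.58 CPM on 20-kPa elastic gels, 2.20, 1.92 and 3.36 CPM on 2-kPa viscoelastic gels, and 3.86, 3.93 and 3.74 CPM on 20-kPa viscoelastic gels. The 3 samples on 20-kPa viscoelastic gels were the highest of all 12, and the other 3 groups overlapped each other. The difference between viscoelastic and elastic gels at 20 kPa was 0.71 ± 0.20 (1.64-fold, adjusted p = 0.0152), but without replicate 3 of the 20-kPa elastic group it was 0.50 with an adjusted p of 0.0709. At 2 kPa it was −0.015 ± 0.21 (95% interval −0.47 to 0.44), which leaves room for a change of either sign. The interaction was 0.73 ± 0.30 (adjusted p = 0.155). It passed in 1 of 19 alternative fits, without replicate 3 of the 2-kPa viscoelastic group (1.01, adjusted p = 0.0369). On viscoelastic gels the difference of 20 from 2 kPa was 0.62 (adjusted p = 0.114) and passed in 2 of 20. The mean effect over both stiffnesses was 0.35 (adjusted p = 0.0729) and passed in 4 of 19. In the annotation 62.83% of the exon bases of Igf2 also belong to Gm49394, a protein-coding gene on the same strand that the count table does not list under that name, so how shared reads were assigned is uncertain.

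Both receptors were lower on viscoelastic gels in the mean over both stiffnesses. Igf1r (chr7:67952827-68233668, plus strand), the signalling receptor for both ligands, had 329.7, 352.1 and 317.8 CPM on 2-kPa elastic gels, 357.6, 335.8 and 409.2 CPM on 20-kPa elastic gels, 327.4, 317.4 and 294.4 CPM on 2-kPa viscoelastic gels, and 263.3, 303.4 and 274.2 CPM on 20-kPa viscoelastic gels. The groups overlapped at 2 kPa but not at 20 kPa, where every viscoelastic sample was below every elastic one. The log2 fold change was −0.39 ± 0.080 at 20 kPa (0.763 times, adjusted p = 0.00206) and −0.090 ± 0.080 at 2 kPa (adjusted p = 0.459), and the interaction of −0.30 ± 0.11 did not pass the test (adjusted p = 0.122). With counts corrected for gene length and GC content the mean effect over both stiffnesses moved from −0.24 to −0.10 (adjusted p = 0.0037 and 0.171). The value at 20 kPa stayed under the threshold in all 20 alternative fits, between −0.45 and −0.24.

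Igf2r (chr17:12682406-12769664, minus strand), the clearance receptor for IGF2 and the carrier of lysosomal enzymes, was highest on soft elastic gels. Its level was 685.5, 656.5 and 561.7 CPM on 2-kPa elastic gels, 483.7, 523.6 and 536.7 CPM on 20-kPa elastic gels, 472.3, 388.6 and 447.3 CPM on 2-kPa viscoelastic gels, and 446.7, 412.2 and 417.6 CPM on 20-kPa viscoelastic gels. No viscoelastic sample reached the lowest elastic sample, and the 2 viscoelastic groups overlapped each other. It was lower on viscoelastic gels at 2 kPa (−0.54 ± 0.086, 0.687 times, adjusted p = 0.000752) and at 20 kPa (−0.27 ± 0.086, 0.827 times, adjusted p = 0.0237). At 20 kPa the call was lost without replicate 2 or 3 of either 20-kPa group (−0.26 to −0.24, adjusted p 0.071 to 0.0865) and with the length and GC correction (−0.18, adjusted p = 0.0867). On elastic gels it was lower at 20 than at 2 kPa (−0.30 ± 0.086, adjusted p = 0.0296), and without any 1 of 5 of these 6 samples (all but replicate 3 of the 2-kPa group) the value lay between −0.33 and −0.24 with an adjusted p of 0.054 to 0.135.

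**Figure D3:**
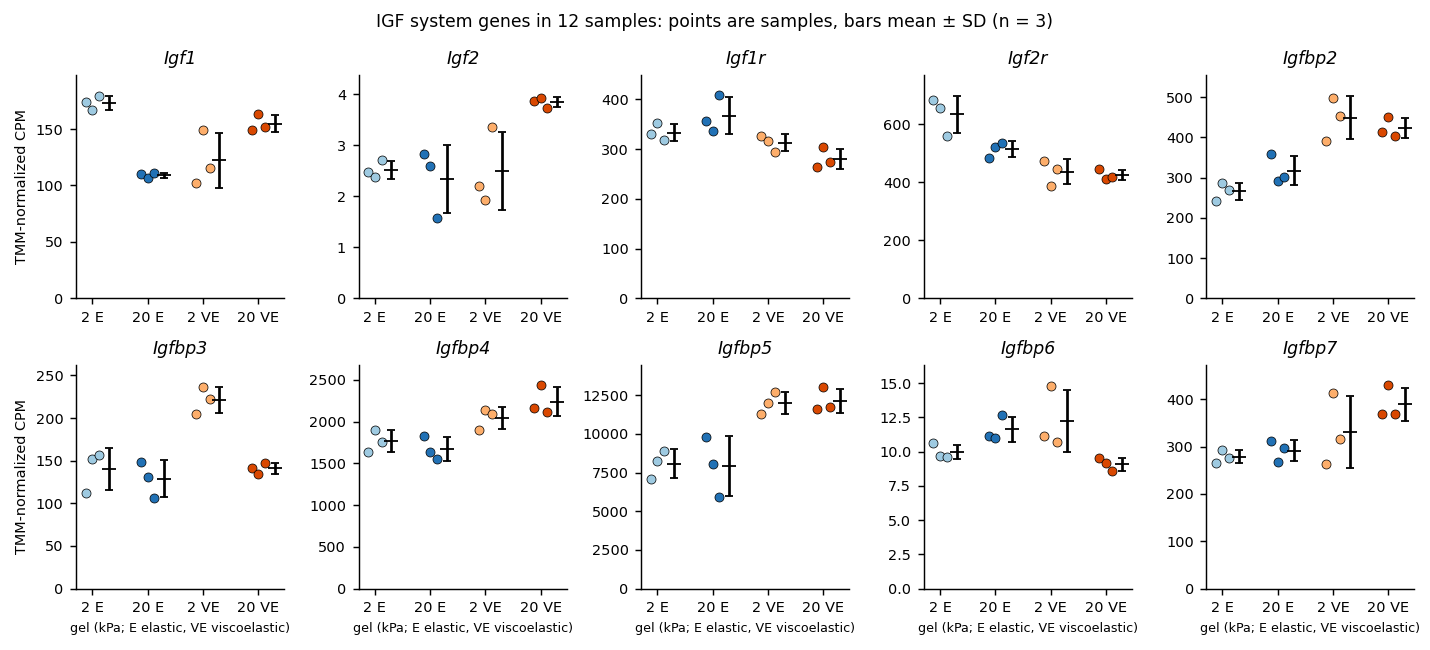
CPM of each gene (vertical axis, from 0) in the 12 samples by gel group, with points for samples and bars for mean ± SD (n = 3). Igfbp5 and Igfbp2 are higher in all 6 viscoelastic samples than in all 6 elastic samples, Igf2r is lower, and Igf1 is high on 2-kPa elastic and 20-kPa viscoelastic gels.

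Among the binding proteins, Igfbp5 (chr1:72857932-72874884, minus strand), which binds matrix components as well as IGFs, rose by about the same amount at both stiffnesses. Its level was 7070, 8269.5 and 8917 CPM on 2-kPa elastic gels, 9789, 8049 and 5897 CPM on 20-kPa elastic gels, 11280.5, 12025 and 12713 CPM on 2-kPa viscoelastic gels, and 11604, 13046 and 11761 CPM on 20-kPa viscoelastic gels. Every viscoelastic sample was above every elastic sample, while the 20-kPa elastic samples were the most spread out. The log2 fold change was 0.57 ± 0.15 at 2 kPa (1.48-fold, adjusted p = 0.0141) and 0.62 ± 0.15 at 20 kPa (1.53-fold, adjusted p = 0.00543). The value at 2 kPa was 0.48 (adjusted p = 0.0783) without replicate 1 of the 2-kPa elastic group and 0.53 (adjusted p = 0.053) without replicate 3 of the 2-kPa viscoelastic group. The mean effect over both stiffnesses was 0.59 ± 0.10 (adjusted p = 0.000523) and passed the test in all 19 alternative fits. Stiffness gave −0.031 (95% interval −0.35 to 0.28) on elastic gels and 0.016 (95% interval −0.30 to 0.33) on viscoelastic gels.

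Igfbp2 (chr1:72824503-72852474, plus strand), the neighbour of Igfbp5 and a binder of both ligands, had 242.9, 285.6 and 269.0 CPM on 2-kPa elastic gels, 357.5, 292.3 and 302.7 CPM on 20-kPa elastic gels, 392.2, 499.1 and 453.9 CPM on 2-kPa viscoelastic gels, and 413.4, 451.7 and 404.6 CPM on 20-kPa viscoelastic gels. All viscoelastic samples were above all elastic samples, and the 20-kPa elastic samples were above the 2-kPa elastic ones. It was higher on viscoelastic gels at 2 kPa (0.75 ± 0.097, 1.69-fold, adjusted p = 0.000162) and at 20 kPa (0.41 ± 0.096, 1.33-fold, adjusted p = 0.00451), with no call lost in any of the 20 alternative fits of either comparison. The smaller value at 20 kPa does not show that the effects differed, since the interaction was −0.34 ± 0.14 with an adjusted p of 0.149. With the length and GC correction the interaction was −0.49 with an adjusted p of 0.0284, and Igfbp2 was higher at 20 than at 2 kPa on elastic gels (0.37, adjusted p = 0.0133, against 0.26 and 0.092 without the correction).

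Igfbp3 (chr11:7206086-7213923, minus strand), the main IGF carrier of the circulation, was raised on soft viscoelastic gels. It had 111.7, 152.0 and 156.9 CPM on 2-kPa elastic gels, 149.0, 131.2 and 106.0 CPM on 20-kPa elastic gels, 205.3, 236.2 and 222.0 CPM on 2-kPa viscoelastic gels, and 141.2, 134.7 and 147.5 CPM on 20-kPa viscoelastic gels. The 2-kPa viscoelastic samples were the highest of the 12, and the other 3 groups overlapped. The log2 fold change between viscoelastic and elastic gels was 0.66 ± 0.12 at 2 kPa (1.58-fold, adjusted p = 0.00213) and 0.13 ± 0.12 at 20 kPa (95% interval −0.13 to 0.39, adjusted p = 0.433). On viscoelastic gels it was lower at 20 kPa (−0.65 ± 0.12, 0.638 times, adjusted p = 0.0194), a call that was lost without replicate 1 (−0.65, adjusted p = 0.0727) or replicate 3 (−0.68, adjusted p = 0.101) of the 20-kPa viscoelastic group. The interaction of −0.53 ± 0.17 had an adjusted p of 0.0823. It passed with every gene with a count in the fit (adjusted p = 0.00363), by the DESeq2 Wald test (adjusted p = 0.027) and without replicate 3 of the 20-kPa elastic group (adjusted p = 0.027).

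Igfbp4 (chr11:99041244-99054392, plus strand), an inhibitor of IGF action whose cleavage by PAPP-A frees the ligand, had 1636.5, 1903.6 and 1753.6 CPM on 2-kPa elastic gels, 1827.7, 1640 and 1553 CPM on 20-kPa elastic gels, 1893.2, 2142.7 and 2093.4 CPM on 2-kPa viscoelastic gels, and 2167.8, 2437.1 and 2110.5 CPM on 20-kPa viscoelastic gels. The groups overlapped at 2 kPa by 1 pair of samples and did not overlap at 20 kPa. The log2 fold change was 0.42 ± 0.089 at 20 kPa (1.34-fold, adjusted p = 0.00264) and 0.21 ± 0.089 at 2 kPa (adjusted p = 0.108, but 0.0435 by the DESeq2 Wald test), with an interaction of 0.21 (adjusted p = 0.36). Stiffness changed it by −0.076 (95% interval −0.27 to 0.11) on elastic and by 0.13 (95% interval −0.058 to 0.32) on viscoelastic gels, neither of which passed the test.

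Igfbp7 (chr5:77349240-77408041, minus strand), a related secreted protein with weak affinity for IGFs, had 266.5, 293.0 and 276.7 CPM on 2-kPa elastic gels, 312.0, 267.2 and 296.8 CPM on 20-kPa elastic gels, 263.6, 414.2 and 315.6 CPM on 2-kPa viscoelastic gels, and 370.1, 429.6 and 368.5 CPM on 20-kPa viscoelastic gels. Replicate 2 of the 2-kPa viscoelastic group was far above the other 2 samples, as it was for Igf1, and the 20-kPa viscoelastic samples were above all elastic ones. Replicate 2 was also the highest of the 20-kPa viscoelastic group for both genes. In both viscoelastic groups replicate 2 had the highest mitochondrial share, with 2.97% against 1.87% and 2.15% at 2 kPa and 3.34% against 2.16% and 2.68% at 20 kPa, and the part of this in the values was not tested. At 20 kPa the log2 fold change was 0.42 ± 0.12 (1.33-fold, adjusted p = 0.018), and at 2 kPa it was 0.25 ± 0.12 (adjusted p = 0.169). The call at 20 kPa was lost without replicate 2 of the 20-kPa elastic group (0.36, adjusted p = 0.0773), without replicate 2 of the 20-kPa viscoelastic group (0.34, adjusted p = 0.0744) and with the length and GC correction (0.23, adjusted p = 0.155). That correction also ended the call of the mean effect over both stiffnesses, which went from 0.33 to 0.21 (adjusted p = 0.0564). Without replicate 1 of the 2-kPa viscoelastic group the value at 2 kPa was 0.39 with an adjusted p of 0.0202. Polr2b overlaps 7.03% of its exon bases on the opposite strand, and the strand setting of the counting is not stated.

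Igfbp6 (chr15:102144362-102149511, plus strand), which prefers IGF2 to IGF1, was the one binding protein that was lower on stiff viscoelastic gels. It had 10.6, 9.67 and 9.64 CPM on 2-kPa elastic gels, 11.2, 10.99 and 12.7 CPM on 20-kPa elastic gels, 11.1, 14.8 and 10.7 CPM on 2-kPa viscoelastic gels, and 9.50, 9.14 and 8.58 CPM on 20-kPa viscoelastic gels. The 20-kPa viscoelastic samples were the lowest of the 12, and on elastic gels the 20-kPa samples lay above the 2-kPa samples. The log2 fold change between viscoelastic and elastic gels was −0.36 ± 0.11 at 20 kPa (0.782 times, adjusted p = 0.0247) and 0.29 ± 0.11 at 2 kPa (adjusted p = 0.0783). The value at 2 kPa passed with total counts (0.33, adjusted p = 0.0453), with every gene with a count (0.30, adjusted p = 0.0414) and without replicate 1 (0.36, adjusted p = 0.0493) or 3 (0.38, adjusted p = 0.0476) of the 2-kPa viscoelastic group. On viscoelastic gels the difference of 20 from 2 kPa was −0.43 ± 0.11 (adjusted p = 0.0573). It passed in 4 of 20 alternative fits: with every gene with a count (adjusted p = 0.00863), with the length and GC correction (adjusted p = 0.0447), by the DESeq2 Wald test (adjusted p = 0.0156) and without replicate 3 of the 2-kPa viscoelastic group (adjusted p = 0.0462). The interaction was −0.65 ± 0.16 (adjusted p = 0.0223). It missed the threshold without replicate 2 or 3 of the 2-kPa elastic group (adjusted p = 0.0518 and 0.0516), without replicate 3 of the 20-kPa elastic group (adjusted p = 0.0568) or without replicate 3 of the 20-kPa viscoelastic group (adjusted p = 0.0595), with values between −0.63 and −0.58. The call at 20 kPa was lost without replicate 3 of the 20-kPa elastic group (−0.29, adjusted p = 0.108) and without replicate 2 (−0.36, adjusted p = 0.0559) or 3 (−0.32, adjusted p = 0.0874) of the 20-kPa viscoelastic group.

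**Figure D4:**
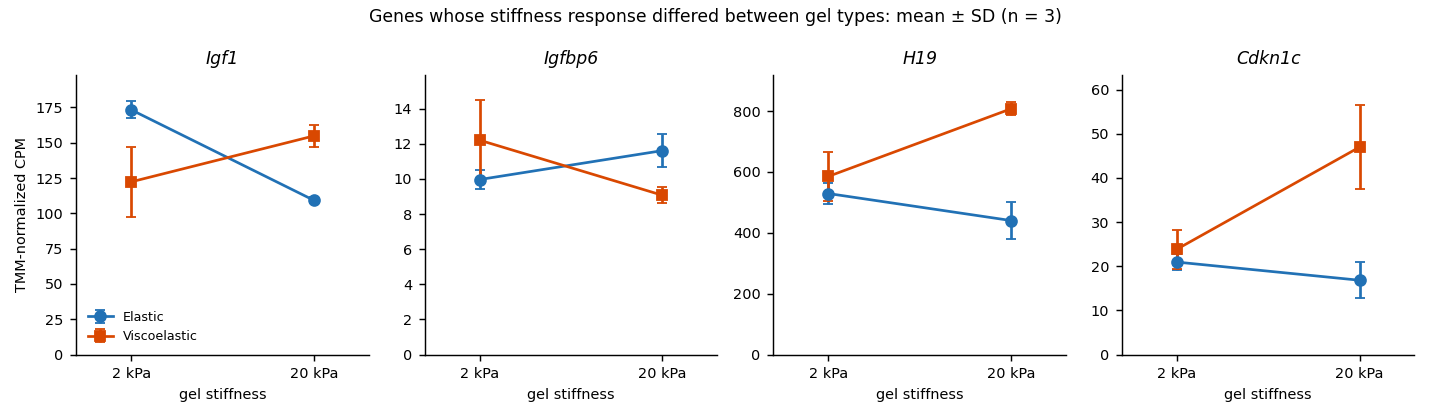
Mean CPM ± SD (n = 3) at 2 and 20 kPa on elastic gels (circles) and viscoelastic gels (squares) for Igf1, Igfbp6 and the imprinted genes H19 and Cdkn1c. The lines cross for Igf1 and Igfbp6, and the interaction was 1.01 for Igf1, −0.65 for Igfbp6, 0.73 for H19 and 1.29 for Cdkn1c on the log2 scale.

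Summed per kb of exon, the 6 binding proteins together had 1945, 2262 and 2315 CPM per kb on 2-kPa elastic gels, 2553, 2143 and 1788 CPM per kb on 20-kPa elastic gels, 2813, 3189 and 3178 CPM per kb on 2-kPa viscoelastic gels, and 3007, 3375 and 3015 CPM per kb on 20-kPa viscoelastic gels. All 6 viscoelastic samples were above all 6 elastic samples, a sum that Igfbp5 dominates. The ratio of this sum to that of the 2 ligands was 108 to 131 on 2-kPa elastic gels, 156 to 221 on 20-kPa elastic gels, 207 to 264 on 2-kPa viscoelastic gels and 189 to 196 on 20-kPa viscoelastic gels. It was thus lowest on soft elastic gels, where Igf1 was highest, and these are ratios of RNA that say nothing of the secreted proteins.

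Beyond the 10 genes, the secreted regulators of IGF availability were followed as a list of 8 genes, of which 6 could be tested. Igfbp1 had no count in any sample, which allows up to 0.0684 to 0.0823 CPM by counting error alone, and Igfbpl1 had at most 7 counts. On viscoelastic gels over both stiffnesses 4 of the 6 were higher and 1 was lower, with a median log2 fold change of 0.28, where 19.6% of all tested genes were called higher and 20.4% lower and their median was 0.0097. Stc2, a secreted inhibitor of the PAPP-A proteases, rose the most, from 3.31, 4.16 and 4.75 CPM on 2-kPa elastic gels to 9.86, 13.7 and 11.9 CPM on 2-kPa viscoelastic gels. At 20 kPa it went from 7.80, 5.59 and 6.51 CPM to 12.2, 18.7 and 14.5 CPM. The groups did not overlap at either stiffness, and the log2 fold change was 1.54 ± 0.18 at 2 kPa (2.91-fold, adjusted p = 8.18e-05) and 1.19 ± 0.17 at 20 kPa (2.29-fold, adjusted p = 0.0002). On elastic gels Stc2 was also higher at 20 than at 2 kPa (0.71, adjusted p = 0.0208), a call lost in 4 of 20 alternative fits.

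Pappa2, a protease that cleaves the products of Igfbp3 and Igfbp5, was lowest on soft elastic gels, with 5.40, 12.9 and 9.06 CPM there, against 18.3 to 25.2 CPM in the 9 other samples. It was 2.47-fold higher on viscoelastic gels at 2 kPa (1.31 ± 0.21, adjusted p = 0.0007) and did not pass the test at 20 kPa (0.056 ± 0.19, adjusted p = 0.846), and the interaction was −1.25 ± 0.28 (adjusted p = 0.0142). Htra1, another protease that acts on Igfbp5 protein, was 1.47-fold higher at 20 kPa (0.56 ± 0.13, adjusted p = 0.0043), with a mean effect of 0.31 (adjusted p = 0.0133). The other 2 calls in the mean effect, named after their values were seen, were Stc1 (0.24, adjusted p = 0.0422) and Pappa, the protease that acts on Igfbp4 protein (−0.14, adjusted p = 0.0178). Igfals, which encodes the subunit that stabilises IGF complexes in blood, was at 0.794 to 1.73 CPM and had an interaction of 1.27 ± 0.29 (adjusted p = 0.0142), and it too was named after its values were seen.

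Of 28 receptor and signalling genes downstream of the ligands, 26 were tested. At 2 kPa 2 were higher and 4 lower on viscoelastic gels, beside 8.77% and 11.1% of all tested genes. At 20 kPa 3 were higher and 6 lower, beside 17.4% and 16.1% of all tested genes. In the mean effect 2 were higher and 8 lower, beside 19.6% and 20.4%, with a median of −0.053 against 0.0097 for all tested genes. The 3 with the lowest p-values were Rptor, Mtor and Grb14. Rptor, the scaffold of the mTORC1 kinase complex, had 39.7 to 47.5 CPM on elastic and 33.2 to 36.6 CPM on viscoelastic gels (−0.32 ± 0.045, 0.802 times, adjusted p = 0.000107). Mtor, its kinase, had 64.5 to 73.3 CPM on elastic and 53.0 to 60.6 CPM on viscoelastic gels (−0.27 ± 0.041, 0.831 times, adjusted p = 0.000185). For both genes all 6 viscoelastic samples were below all 6 elastic samples, and the mean effect passed the test in all 19 alternative fits, although the length and GC correction brought it to −0.15 for each. At single stiffnesses that correction ended the calls of Mtor at 2 kPa (−0.13, adjusted p = 0.0976) and Rptor at 20 kPa (−0.13, adjusted p = 0.0662). With the replicate block added, Rptor at 2 kPa was lost too (−0.16, adjusted p = 0.0677). Mtor at 20 kPa passed in all 20 alternative fits. Grb14, an adaptor that inhibits the insulin receptor, was higher in the mean effect (0.32 ± 0.057, 1.25-fold, adjusted p = 0.0006). At 2 kPa the difference was 0.44 (adjusted p = 0.00184). At 20 kPa the groups overlapped, with 180 to 209 CPM on elastic and 194 to 243 CPM on viscoelastic gels. The stiffness effect on elastic gels called 1 of the 26 higher and 4 lower, beside 6.81% and 7.14% of all tested genes. That on viscoelastic gels called none in either direction by edgeR or DESeq2, with 1 higher and 3 lower at an unadjusted p under 0.05, and few of all tested genes were called there either (1.58% higher and 0.695% lower).

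Among 15 tested genes for IGF2 mRNA-binding proteins and for imprinted transcripts other than Igf2 and Igf2r, 7 were higher and 1 was lower on viscoelastic gels over both stiffnesses, with a median of 0.18, against 19.6% and 20.4% of all tested genes and their median of 0.0097. None of the 3 Igf2bp genes passed the test in any comparison. H19, the maternally expressed noncoding RNA that lies 72.6 kb from Igf2 and shares its control region, had 489 to 552 CPM on 2-kPa elastic gels, 376 to 499 CPM on 20-kPa elastic gels, 510 to 669 CPM on 2-kPa viscoelastic gels, and 786 to 830 CPM on 20-kPa viscoelastic gels. Like Igf2, it was highest in the 3 samples on stiff viscoelastic gels. The difference between gel types was 0.87 ± 0.10 at 20 kPa (1.83-fold, adjusted p = 0.000109) and 0.15 ± 0.10 at 2 kPa (adjusted p = 0.35), and the interaction was 0.73 ± 0.15 (adjusted p = 0.0075). Cdkn1c, an imprinted inhibitor of cyclin-dependent kinases, had 40.6, 57.9 and 42.4 CPM on 20-kPa viscoelastic gels and 12.6 to 27.4 CPM in the other 9 samples. Its difference at 20 kPa was 1.48 ± 0.17 (2.79-fold, adjusted p = 0.000101) and its interaction 1.29 ± 0.24 (adjusted p = 0.00477). Ndn, which encodes necdin, was higher at both stiffnesses (0.41 and 0.35, adjusted p = 0.00447 and 0.00591).

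**Figure D5:**
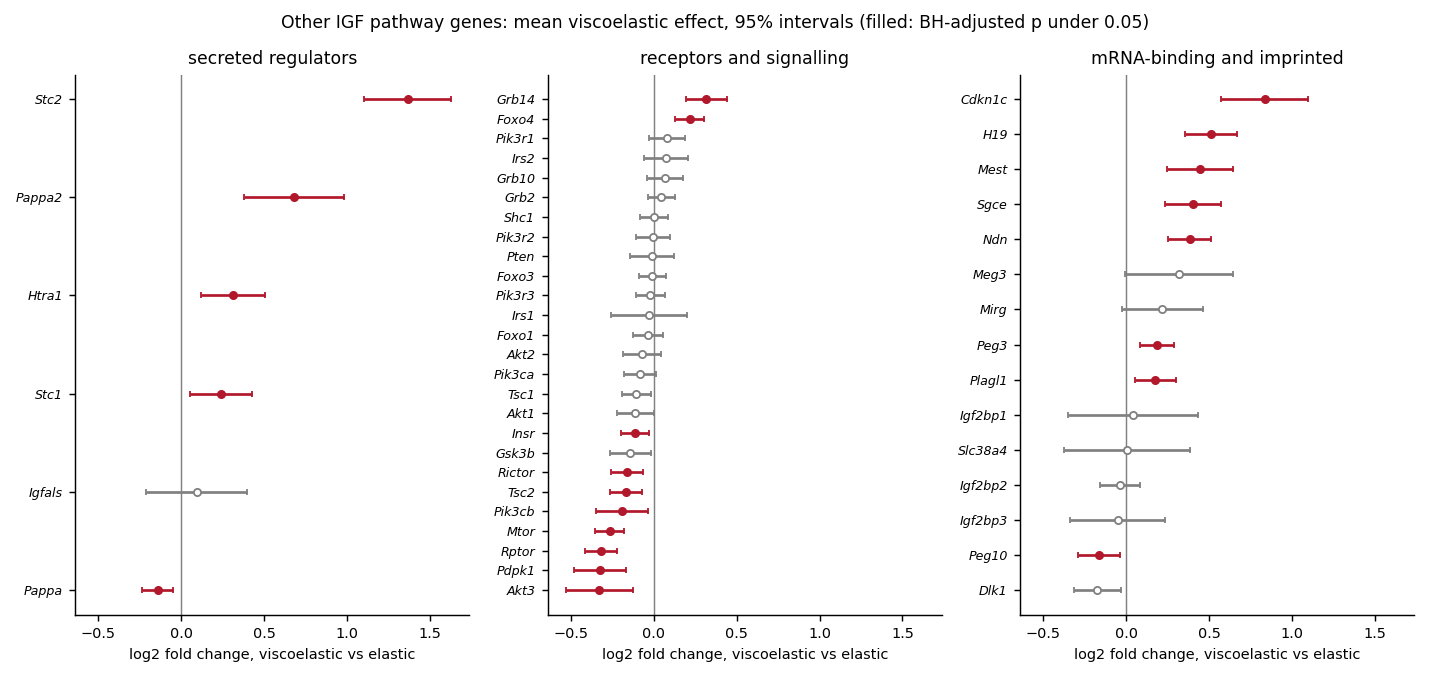
Mean viscoelastic effect (log2 fold change over both stiffnesses, horizontal axis, bars are 95% intervals) for the tested genes of the 3 pathway lists. Filled points have an adjusted p under 0.05: 4 higher and 1 lower among secreted regulators, 2 higher and 8 lower among receptors and signalling genes, and 7 higher and 1 lower among mRNA-binding and imprinted genes, where 19.6% of all tested genes were called higher and 20.4% lower.

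For the 3 IGF genes whose group means ranged most widely, the tested genes with the most similar levels over the 12 samples were sought, by the root-mean-square (RMS) difference in log2 CPM after centring each gene. Igfbp3 lay closest to Coq8a (RMS 0.134), Sorbs2 (0.152) and Gm36033 (0.152). Igfbp2 lay closest to Gadd45g (0.0815), Hlx (0.0848) and Mmp23 (0.0955). Igf2 lay closest to H19 (0.187), Kank4 (0.188) and Cygb (0.203), at distances that the counting noise of its 64 to 167 counts bears on.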

How the data were processed

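PolyA RNA of mouse ear fibroblasts was analysed in 12 samples, 3 in each of 4 gel groups set by the sample titles. The authors trimmed reads with Trimmomatic, aligned them to mm10 with STAR, used featureCounts with a GENCODE annotation to count them, and deposited these raw counts by gene symbol. The release of that annotation, the strand setting and the treatment of multi-mapping reads are not given in the sources used here.

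edgeR 4.0.16 (R 4.3.3) was run on the counts: filterByExpr (minimum count 10, minimum total 15), TMM normalization, a quasi-likelihood fit with 1 coefficient per group, and Benjamini-Hochberg adjustment. The fit was tested on simulated data in which every gene had the common dispersion and no batch was present. That test does not cover a spread that differs between genes or is shared between samples. The square root of the common dispersion was 7.50%, and replicate pairs differed by 11.2 to 55.5 times the counting variance. Levels per kb used GENCODE exon lengths of the GRCm38 assembly. DESeq2 1.42.0, other scalings, filters and offsets, a replicate block and leaving out each sample were the alternatives. The 10 genes and all lists were chosen with earlier results of these data known. Named genes are those 10, the 3 genes with the lowest p per pathway list in the mean viscoelastic effect, and the 3 nearest profiles of the 3 genes with the widest range. Alternatives for further comparisons of these pathway genes and for Igfals were chosen after seeing the data.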

Additional observations from a re-analysis of the deposited data

Results flagged for a closer look

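The response to stiffness differed between the gel types, by the interaction test, for 6 of the genes named above from the IGF system and its pathway lists. It also differed for some cell type markers and for Kank4, a gene near Igf2 in profile. Some of these genes were named for their values, and the interaction was called positive for 4.45% and negative for 3.12% of all tested genes. By whole lists it was positive for 1 and negative for 1 of the 10 IGF genes, and likewise of the 6 tested secreted regulators. It was positive for 2 of 26 signalling genes and for 4 of 15 mRNA-binding and imprinted genes, and negative for none of them by edgeR. Igf1 had an interaction of 1.01 on the log2 scale, since its level fell with stiffness on elastic gels and was 0.34 higher, short of the threshold, on viscoelastic gels. Igfbp6 had an interaction of −0.65, with a level of 9.97 ± 0.54 CPM on 2-kPa elastic, 11.6 ± 0.94 CPM on 20-kPa elastic, 12.2 ± 2.3 CPM on 2-kPa viscoelastic and 9.07 ± 0.46 CPM on 20-kPa viscoelastic gels (SD, n = 3 each). H19 had an interaction of 0.73, and Cdkn1c of 1.29, both with their highest levels on stiff viscoelastic gels. The interaction of Igfals was 1.27 at a level of 34 to 74 counts per sample, and that of Pappa2 was −1.25, with its lowest levels on soft elastic gels. The interaction passed the test in all 19 alternative fits for Igf1, H19, Cdkn1c, Igfals and Pappa2, and in 15 of 19 for Igfbp6. Among the markers the interaction was 1.01 for Col9a1, 1.06 for Col11a2, 1.32 for S100b and −2.06 for Myh11, the last at 0.879 to 3.50 CPM. Over the 9 fibroblast markers it ran from −0.62 to 1.09, with 1 called in each direction, and 1 of 5 tested endothelial markers was called negative. The interaction of Kank4 was 0.79.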

How the results depend on the processing

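Each count of the 10 genes called was computed again under 21 other settings (19 for the mean effect and the interaction, plus the stricter threshold). The cause of the changes below was not tested. With an adjusted p under 0.01 in place of 0.05, the 9 genes called at 20 kPa became 5, the 2 for stiffness on elastic gels 1, the 1 on viscoelastic gels 0 and the 2 for the interaction 1. How many of all tested genes passed 0.01 was not counted, so these losses cannot be set against the general loss of calls. Leaving out 1 sample gave 1 to 2 genes for stiffness on elastic gels, 0 to 3 on viscoelastic gels and 1 to 3 for the interaction. Over all genes in these fits the calls ran from 1063 to 2369, from 9 to 351 and from 670 to 1182. For stiffness on viscoelastic gels 4 genes were called with every gene with a count, 2 with the length and GC correction and 3 by the DESeq2 Wald test. Counts for viscoelastic against elastic gels at 2 kPa and for the mean effect stayed within 1.5 times of 5 and 7.

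The replicate numbers showed no pairing on average: deviations from group means correlated by −0.0248 over 18 pairs with the same number and by 0.0126 over 36 with different numbers. Single pairs ran from −0.2 to 0.308 with the same number and from −0.238 to 0.228 with different numbers. An average cannot show whether only some samples shared a batch, which was not tested. A replicate block left the 6 counts at 5, 9, 2, 1, 7 and 2. Over all tested genes it lowered the calls for viscoelastic against elastic gels from 2892 to 2569 at 2 kPa and from 4866 to 4485 at 20 kPa. The calls fell from 2029 to 1731 for stiffness on elastic gels, from 5817 to 5475 for the mean effect and from 1100 to 845 for the interaction. Among other genes, H19 on viscoelastic gels (20 against 2 kPa) was at 0.465 (adjusted p = 0.0363) in the main fit and at 0.466 (adjusted p = 0.0603) with the block. That call was lost in 11 of 20 alternative fits. The 331 of all tested genes called for stiffness on viscoelastic gels were 154 with the block, 177 with the length and GC correction, 88 with both, 38 with the 6 samples alone, 653 with every gene with a count, 757 by DESeq2, and 36 and 9 without replicate 1 or 3 of the 20-kPa viscoelastic group. It was 173 without replicate 2 of the 2-kPa elastic, 167 without replicate 2 of the 20-kPa elastic, and 127 and 219 without replicate 1 or 2 of the 2-kPa viscoelastic group. Viscoelastic against elastic gels called 2892 genes at 2 kPa, but 1545 and 1924 without replicate 1 or 2 of the 2-kPa elastic group, and 4866 at 20 kPa, but 3177 without replicate 3 of the 20-kPa elastic group. Stiffness on elastic gels called 2029, but 1167 and 1341 without replicate 1 or 2 of the 2-kPa and 1063 without replicate 3 of the 20-kPa elastic group. The interaction called 1100, but 670 without replicate 1 of the 2-kPa elastic group and 727 without replicate 1 of the 20-kPa viscoelastic group.

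Signs turned only for values that had missed the threshold. The mean effect of Igf1 was 0.036 with total counts, 0.0015 with every gene with a count, 0.051 with the length and GC correction, 0.044 with that and the block, and −0.085 to 0.058 when 1 sample was left out. Igf1r at 2 kPa was 0.039 with the correction, with or without the block. Igf2 at 2 kPa was 0.026 with total counts, 0.069 with the correction, 0.065 with the block too, and −0.29 to 0.14 leaving out 1 sample. For stiffness on viscoelastic gels, Igf2r was 0.0058 with the correction and 0.0064 with the block too, and Igfbp5 was −0.0011 with its 6 samples alone. Leaving out 1 sample gave −0.11 to 0.026 for Igf2r, −0.17 to 4.9e-05 for Igfbp2 and −0.039 to 0.059 for Igfbp5 there, and −0.25 to 0.11 for Igf2 and −0.20 to 0.14 for Igfbp5 for stiffness on elastic gels. The Igfbp5 interaction ran from −0.13 to 0.20. The mean effect of Igfbp6 was 0.0045 with total counts and −0.11 to 0.011 without 1 sample.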
